A study of Homo sapiens with 9 samples.

Results

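The 10 genes described here belong to bone morphogenetic protein (BMP) signalling. They are the receptor genes BMPR1A, ACVRL1, ACVR1 and BMPR2, the co-receptor gene ENG, the ligand genes BMP2, BMP4 and BMP6, and the antagonist genes GREM1 and BMPER. They were chosen by symbol, and all 10 were found among the 28514 rows of the count table. RNA was sequenced from CI-huVEC, endothelial cells of the human umbilical vein that were immortalized as a line, taken at passage 31. The groups were 3 clonal knockout lines of CCM3 (clones 21, 22 and 23; CCM3 -/-, edited with CRISPR/Cas9 in exon 3) kept for 48 h on fibronectin at 5 µg/cm², the same 3 clones without fibronectin, and 3 wild-type lines without fibronectin. Every library carries the same clone tag, HKO, and the spread within a knockout group is that between clones. No label states that the wild-type lines were grown separately, so their spread may be technical. The wild-type lines are not described as clonal, so clonal origin and genotype cannot be told apart.

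BMPs bind pairs of type I and type II serine/threonine kinase receptors on the cell surface, and the type I receptor then phosphorylates SMAD1, SMAD5 and SMAD9, which enter the nucleus with SMAD4. In endothelium the type I receptor ACVRL1 (ALK1), the type II receptor BMPR2 and the co-receptor endoglin (ENG) sense circulating BMPs, and mutations of ACVRL1 and ENG cause hereditary haemorrhagic telangiectasia. Secreted antagonists such as gremlin 1 bind BMP ligands and keep them from the receptors. Loss-of-function mutations of CCM3, whose symbol in the table is PDCD10, cause cerebral cavernous malformations.

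Total counts per library ran from 24406001 to 33971610. PDCD10 mRNA was lowered but not lost, averaging 36.4 ± 1.30 CPM in knockout clones on fibronectin and 38.5 ± 3.43 CPM without it, against 49.3 ± 3.49 CPM in wild-type (SD, n = 3 each). CPM is the count scaled by library size after TMM correction. The endothelial identity of the cells was clear, as all 14 endothelial markers exceeded a mean of 1 CPM in each group. Their summed level was 6638 to 7522 CPM on fibronectin and 6369 to 6855 CPM without it, against 2856 to 3209 CPM in wild-type. VWF carried most of that difference, at 2974 CPM on fibronectin and 2686 CPM without it, against 325 CPM in wild-type. Other endothelial markers went both ways in the knockout without fibronectin. PECAM1 (1029 CPM, against 446 CPM in wild-type), KDR (457 and 228 CPM) and TEK (386 and 107 CPM) had higher means. TIE1, ESAM, SOX18 and CLDN5 were higher too. CDH5 (684 CPM, against 715 CPM in wild-type) and ERG (280.2 and 301 CPM) had lower means. So did EMCN (12.8 and 32.0 CPM), SOX17 (2.21 and 10.5 CPM) and EGFL7, and ROBO4 was near its wild-type level (312.9 and 313.5 CPM). Markers of smooth muscle and pericytes summed to 8.81 to 9.60 CPM on fibronectin and 9.80 to 10.6 CPM without it, against 85.3 to 93.9 CPM in wild-type. That difference was RGS5, at 4.21 and 5.42 CPM in these knockout groups and 85.5 CPM in wild-type, while ACTA2 stood at 4.67 and 4.52 CPM, against 3.81 CPM. In each group 2 of those 8 markers exceeded a mean of 1 CPM, and those at 0 were NOTCH3 on fibronectin, CNN1 and DES in the knockout and MYH11 and DES in wild-type. Sums of fibroblast, epithelial and leukocyte markers stayed at 3.59 CPM or lower in each library. Of these markers only EPCAM (1.13 CPM) and CD14 (1.33 CPM) exceeded a mean of 1 CPM, both on fibronectin. Leukocyte markers summed to 2.19 to 3.59 CPM on fibronectin and 1.41 to 2.49 CPM without it, against 0.168 to 0.230 CPM in wild-type. Epithelial sums were also higher in the knockout groups on average, and fibroblast sums were lower. The part of these markers in the results was not tested. In bulk RNA, fewer cells of a type and less RNA per cell cannot be told apart.

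Most of the 10 genes differed between knockout and wild-type cells, by sizes that ranged from near loss to small shifts, and none passed the test between knockout cells with and without fibronectin. BMPR1A and GREM1 fell to between 0.496% and 1.38% of their summed wild-type level. ENG, BMP4, BMP6 and ACVR1 fell by smaller amounts, ACVRL1 rose, and BMPER was at the limit of detection in all groups. The words rose and fell are used where edgeR's quasi-likelihood test gave a Benjamini-Hochberg adjusted p under 0.05 over all genes. All but BMPER, 9 genes, passed the filter on low counts, BMPR1A and GREM1 only through the wild-type libraries where they are high. In knockout against wild-type 8 of these 9 changed, 1 up and 7 down, where 50.1% of the 13802 genes tested changed, 23% up and 27% down. In knockout on fibronectin against wild-type all 9 tested genes changed, 1 up and 8 down, where 58.7% of genes changed, 29% up and 29.6% down. In CPM, 7 of the 9 genes did not overlap between knockout and wild-type libraries, all but BMPR2 and BMP2, as for 61.5% of all genes (28.2% higher and 33.3% lower). On fibronectin 8 of the 9 did not overlap with wild-type, all but BMPR2, as for 64.3% of all genes (31.6% higher and 32.7% lower). Both comparisons use the same wild-type libraries. No wild-type library was on fibronectin, so genotype and fibronectin cannot be told apart in the second comparison. The median log2 fold change of the tested genes of the group was -0.50 in the first and -0.61 in the second comparison, beside -0.03 and 0.01 over all genes.

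**Figure D1:**
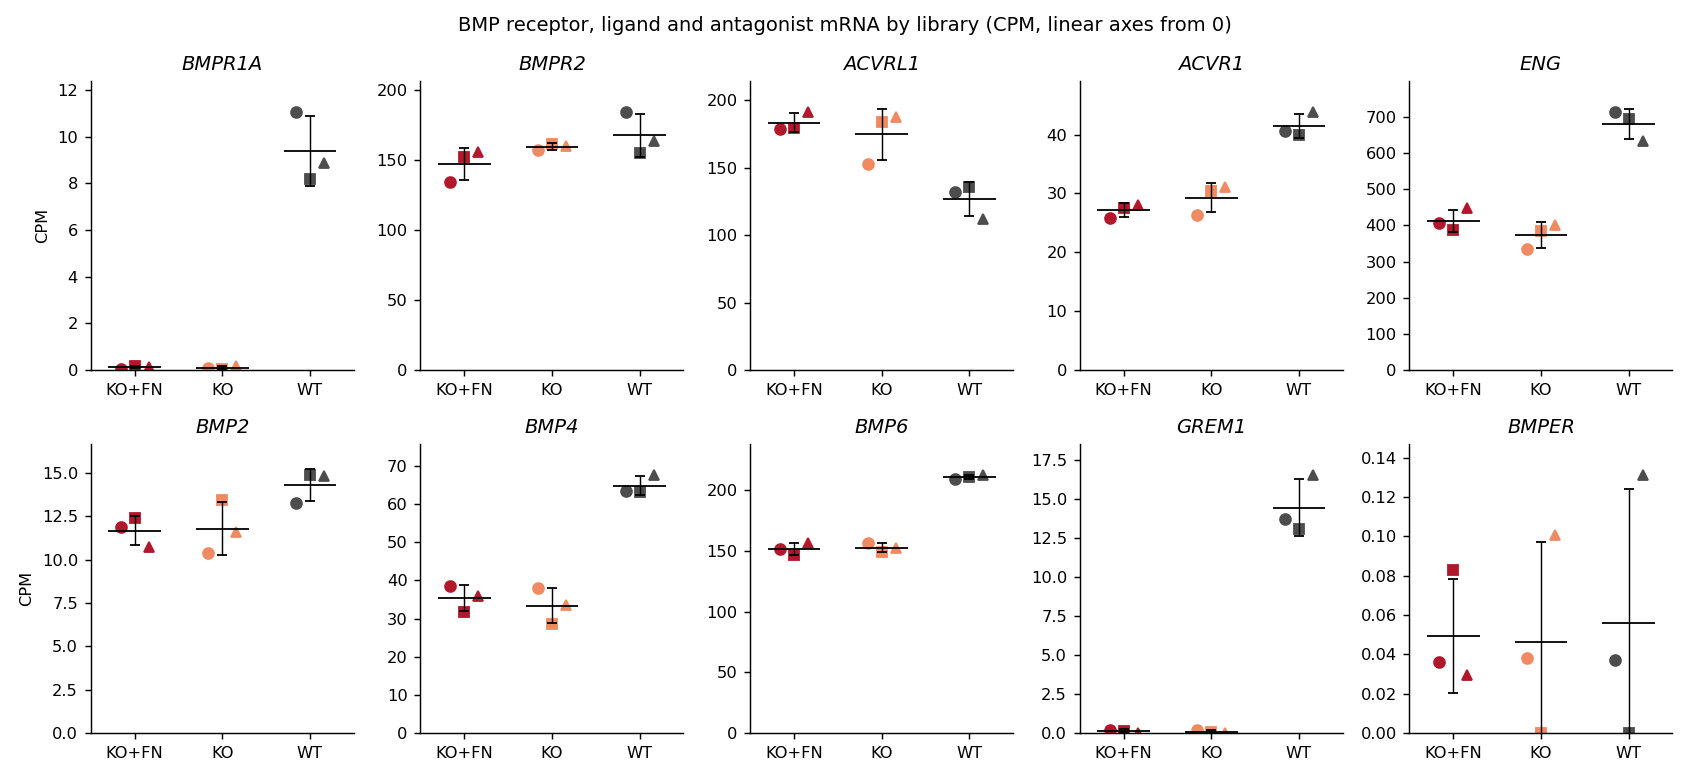
CPM of each gene in each library (points; circle, square and triangle are clones 21, 22 and 23 or wild-type lines 1, 2 and 3), with the group mean (line) and SD (bars, n = 3). BMPR1A and GREM1 lie near 0 in all 6 knockout libraries, ACVRL1 lies above and ENG, BMP4, BMP6 and ACVR1 lie below wild-type in all 6.

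Promoter sequences are shown for 4 of these genes, the 2 that were nearly lost and 2 that fell less far (ENG and BMP6), so that their base composition and motifs can be set beside their expression. The RefSeq promoter table used (GRCh38.p14) holds 8 of the 10 genes, and the 250 bases before the start are given 5′ to 3′ on the gene's strand. Capitals mark 3 motifs searched on both strands: GGCGCC, a GC-rich element bound by BMP-activated SMADs, CAGAC (or GTCTG), the core bound by SMAD4, and CACCC (or GGGTG), a core bound by KLF factors. GREM1 has a further start in RefSeq that is not shown.
BMPR1A, chr10:86755513-86755762, plus strand: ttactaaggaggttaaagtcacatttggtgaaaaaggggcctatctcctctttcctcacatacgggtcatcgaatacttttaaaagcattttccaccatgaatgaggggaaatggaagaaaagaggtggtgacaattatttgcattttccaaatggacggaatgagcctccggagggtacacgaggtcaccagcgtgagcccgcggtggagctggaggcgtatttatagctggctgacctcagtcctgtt
GREM1, chr15:32717754-32718003, plus strand: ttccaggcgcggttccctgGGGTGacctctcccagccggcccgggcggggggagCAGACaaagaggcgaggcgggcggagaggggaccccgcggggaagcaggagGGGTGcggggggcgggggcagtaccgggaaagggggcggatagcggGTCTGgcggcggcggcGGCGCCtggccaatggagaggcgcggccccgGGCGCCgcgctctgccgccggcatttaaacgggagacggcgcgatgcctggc
ENG, chr9:127854659-127854908, minus strand: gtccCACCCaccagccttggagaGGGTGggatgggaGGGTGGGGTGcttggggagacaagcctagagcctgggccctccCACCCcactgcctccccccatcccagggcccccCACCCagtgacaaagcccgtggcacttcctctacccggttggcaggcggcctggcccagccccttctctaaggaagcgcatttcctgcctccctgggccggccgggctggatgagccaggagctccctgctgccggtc
BMP6, chr6:7725849-7726098, plus strand: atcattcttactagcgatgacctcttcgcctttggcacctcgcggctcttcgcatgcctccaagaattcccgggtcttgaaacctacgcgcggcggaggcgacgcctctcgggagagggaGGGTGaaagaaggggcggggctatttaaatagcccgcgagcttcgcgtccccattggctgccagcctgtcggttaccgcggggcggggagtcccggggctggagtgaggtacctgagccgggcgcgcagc

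The windows of the 2 nearly lost genes differ in composition. The BMPR1A window holds 9 CpG dinucleotides, has a GC content of 47.2% and holds none of the 3 motifs. The GREM1 window holds 32 CpG dinucleotides, has a GC content of 76.8% and holds each of the 3 motifs 2 times. ENG has 7 CpG dinucleotides and 6 matches of CACCC, and BMP6 has 26 and 1. Over all 35116 RefSeq promoters of this length, 16.4% held GGCGCC, 38% held CAGAC and 54.7% held CACCC, and the median number of CpG dinucleotides was 11. No matches overlapped one another in these windows. A match is a description of letters and does not show binding.

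BMPR1A (ALK3), the widely expressed type I receptor for BMP2 and BMP4, was nearly lost. It had 2, 4 and 5 counts in knockout clones 21, 22 and 23 on fibronectin, 3, 1 and 5 counts in the same clones without it, and 299, 243 and 270 counts in wild-type lines 1, 2 and 3. Every knockout library lay far below every wild-type library. That is 0.128 ± 0.0498 CPM on fibronectin and 0.106 ± 0.0660 CPM in the knockout, against 9.36 ± 1.50 CPM in wild-type (SD, n = 3 each). The log2 fold change of the knockout against wild-type was -6.38 (SE 0.29, adjusted p = 9.79e-10). Wild-type summed counts were 86.2 times the knockout ones after scaling, with a 95% exact interval of 45.2 to 189 that covers counting error only. Only 0.638% of the genes tested had a greater change in either direction.

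ACVRL1, the endothelial type I receptor for BMP9 and BMP10, was the only gene of the group that rose. Its levels were 179, 179 and 191 CPM in clones 21, 22 and 23 on fibronectin, 153, 183 and 187 CPM in the knockout clones, and 132, 136 and 112 CPM in wild-type. The knockout groups did not overlap with wild-type, although clone 21 without fibronectin came near it. The log2 fold change was 0.46 (SE 0.09, adjusted p = 0.000657) in the knockout and 0.53 (SE 0.09, adjusted p = 0.000176) on fibronectin, a rise of 1.38-fold and 1.45-fold. ACVR1 (ALK2), the type I receptor that binds BMP6 and BMP7, moved the other way. It had 25.8, 27.6 and 28.1 CPM on fibronectin and 26.4, 30.4 and 31.0 CPM in the knockout clones, against 40.6, 39.9 and 43.8 CPM in wild-type. The wild-type libraries lay above all others, with a log2 fold change of -0.50 (SE 0.08, adjusted p = 0.000112) for the knockout.

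The type I receptor pool was compared per length, on the FPKM scale that the authors deposited. The sum of BMPR1A, BMPR1B, ACVRL1 and ACVR1 was 43.5 ± 2.10 FPKM on fibronectin, 42.9 ± 4.35 FPKM in the knockout and 40.5 ± 2.58 FPKM in wild-type (SD, n = 3 each). The sum thus stayed within the spread between libraries while its make-up differed. ACVRL1 made up 82.0 ± 0.459% of it on fibronectin and 80.2 ± 0.505% in the knockout, against 62.5 ± 3.18% in wild-type. ACVR1 made up 17.0 ± 0.472%, 18.9 ± 0.360% and 28.8 ± 3.04% in the same order. BMPR1A and BMPR1B, a gene outside the 10, made up 0.0670% and 0.847% on fibronectin, 0.0581% and 0.908% in the knockout, and 5.46% and 3.19% in wild-type. These shares are given as a description, with no test.

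**Figure D2:**
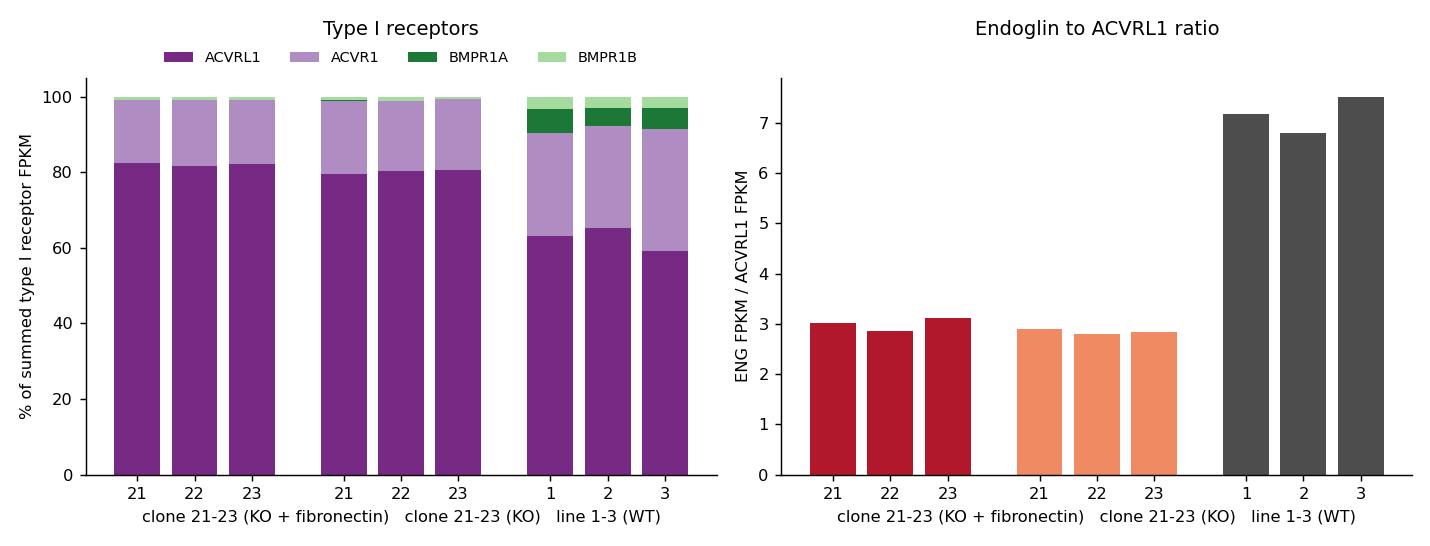
Left, share of the summed type I receptor FPKM taken by each receptor in each library. Right, ratio of ENG to ACVRL1 FPKM in each library, at 2.80 to 3.11 in the 6 knockout libraries and 6.80 to 7.52 in the wild-type libraries.

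BMPR2, the type II receptor mutated in heritable pulmonary arterial hypertension, changed least among the receptors. It had 134, 152 and 156 CPM on fibronectin and 157, 162 and 160 CPM in the knockout clones, against 184, 155 and 164 CPM in wild-type. The groups overlapped in both comparisons with wild-type. The log2 fold change was -0.07 (SE 0.07, adjusted p = 0.442) in the knockout and -0.19 (SE 0.07, adjusted p = 0.0417) on fibronectin. The second value was not called without wild-type line 1 (adjusted p = 0.218), wild-type line 3 (0.0618) or clone 21 on fibronectin (0.215), nor with only the 6 libraries of both groups (0.0695). Over its alternatives the adjusted p ran from 0.0217 to 0.218.

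ENG, the co-receptor that presents ligand to ACVRL1, was the most abundant of the 10 per length. It had 405, 386 and 446 CPM on fibronectin and 333, 385 and 400 CPM in the knockout clones, against 713, 692 and 633 CPM in wild-type. All knockout libraries lay below all wild-type libraries. ENG fell by 0.86 on the log2 scale in the knockout (SE 0.08, adjusted p = 9.11e-07) and by 0.72 on fibronectin (SE 0.08, adjusted p = 4.28e-06). Per length it stood at 107 ± 8.56 FPKM, 98.1 ± 9.04 FPKM and 181 ± 12.9 FPKM on fibronectin, in the knockout and in wild-type (SD, n = 3 each). With ACVRL1 up and ENG down, the ratio of ENG to ACVRL1 FPKM was 3.00 ± 0.124 on fibronectin and 2.85 ± 0.0551 in the knockout, against 7.16 ± 0.361 in wild-type. GENCODE lists an antisense gene overlapping ENG, and the strand setting of the counting was not given, so reads of both could not be told apart if strand was ignored.

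The 3 ligand genes all had lower means in knockout cells. BMP6, an endothelial BMP known for its role in iron homeostasis in liver, was the most abundant of them per length. It had 151, 147 and 157 CPM on fibronectin and 156, 149 and 153 CPM in the knockout clones, against 209, 211 and 213 CPM in wild-type. The spread within groups was small and no groups overlapped with wild-type. BMP6 fell by 0.47 on the log2 scale in the knockout (SE 0.05, adjusted p = 4.72e-06) and by 0.48 on fibronectin (SE 0.05, adjusted p = 3.21e-06).

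BMP4, a ligand of BMPR1A, fell further. It had 38.5, 31.6 and 35.9 CPM on fibronectin and 37.9, 28.6 and 33.6 CPM in the knockout clones, against 63.4, 63.3 and 67.7 CPM in wild-type. Clone 22 was lowest with and without fibronectin, and all wild-type libraries lay above all knockout ones. The log2 fold change was -0.96 (SE 0.10, adjusted p = 3.19e-06) in the knockout and -0.87 (SE 0.10, adjusted p = 5.94e-06) on fibronectin.

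BMP2, the closest relative of BMP4, had 11.9, 12.4 and 10.7 CPM on fibronectin and 10.4, 13.4 and 11.6 CPM in the knockout clones, against 13.3, 14.9 and 14.8 CPM in wild-type. Clone 22 without fibronectin lay above wild-type line 1, so knockout and wild-type overlapped, whereas the libraries on fibronectin lay below wild-type. Its log2 fold change was -0.28 (SE 0.11, adjusted p = 0.0448) in the knockout, and 9 of 11 alternatives did not call it, with adjusted p from 0.0165 to 0.220. Among those were the fits without wild-type line 1, 2 or 3 (adjusted p = 0.0552, 0.132 and 0.116) and without knockout clone 21 or 23 (0.220 and 0.110). On fibronectin it was -0.30 (SE 0.11, adjusted p = 0.0297), and leaving out wild-type line 2 or 3 or clone 23 on fibronectin ended the call (adjusted p = 0.0943, 0.0857 and 0.120). Over 11 alternatives that adjusted p ran from 0.0236 to 0.120.

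The summed level of the 3 ligand genes per length was 58.7 ± 2.11 FPKM on fibronectin and 59.0 ± 2.58 FPKM in the knockout, against 90.4 ± 0.690 FPKM in wild-type (SD, n = 3 each). BMP6 made up 69.1 ± 1.45%, 70.2 ± 1.42% and 64.2 ± 0.704% of the sum in these groups. The ligand sum was thus lower and weighted somewhat more to BMP6 in knockout cells.

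GREM1, a secreted antagonist that binds BMP2 and BMP4, was nearly lost like BMPR1A. It had 6, 3 and 0 counts in clones 21, 22 and 23 on fibronectin, 5, 1 and 0 counts in the same clones without it, and 371, 390 and 505 counts in wild-type lines 1, 2 and 3. No knockout library came near a wild-type library. The mean was 0.113 ± 0.108 CPM on fibronectin and 0.0759 ± 0.102 CPM in the knockout, against 14.5 ± 1.85 CPM in wild-type (SD, n = 3 each). Summed wild-type counts were 138 times those on fibronectin (95% exact interval 72.6 to 303) and 202 times those of the knockout (92.4 to 551). The fitted log2 fold change of the knockout was -7.56 (SE 0.45, adjusted p = 8.08e-08), and its size depended on single libraries, at -9.35 without clone 21 and -6.96 without clone 23. On fibronectin it was -7.04 (SE 0.42, adjusted p = 7.59e-08), at -7.99 without clone 21 and -6.34 without clone 23. GENCODE lists a long noncoding gene overlapping GREM1 on the other strand, with the same limit as for ENG.

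BMPER, a secreted BMP-binding endothelial regulator, had 1, 2 and 1 counts on fibronectin, 1, 0 and 3 without it, against 1, 0 and 4 in wild-type. It did not pass the filter on low counts, and a difference was not detectable at this depth.

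**Figure D3:**
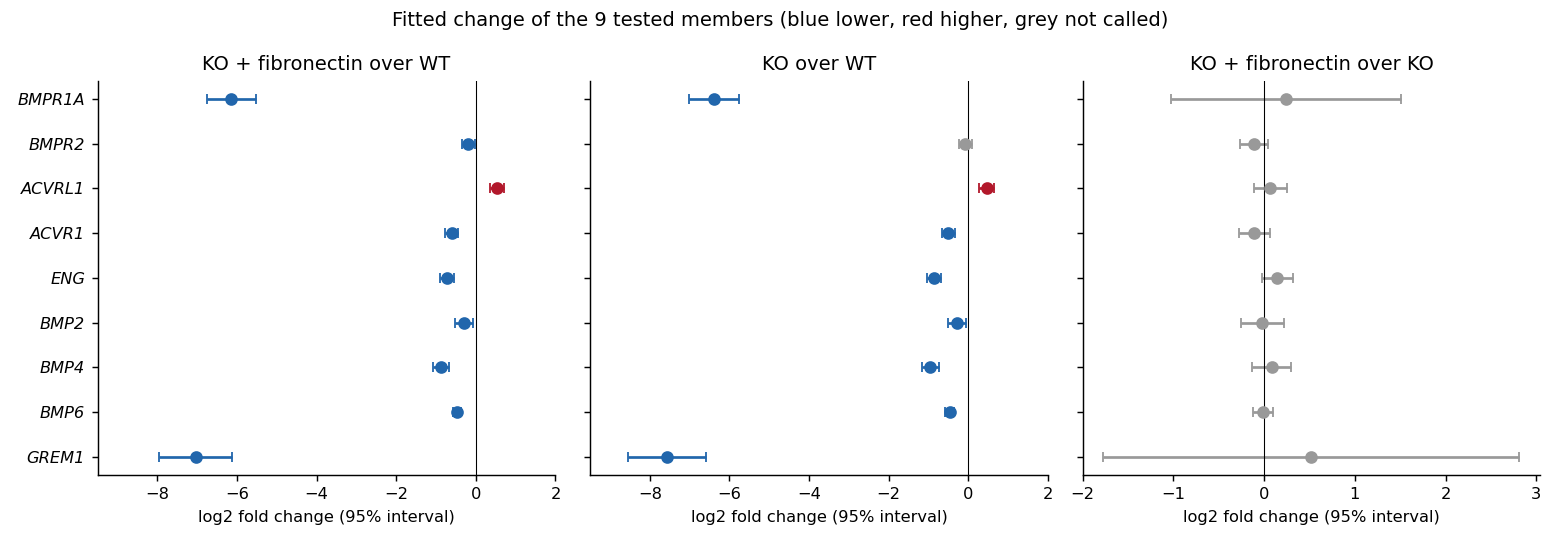
Fitted log2 fold change of the 9 tested genes with 95% intervals, for knockout on fibronectin over wild-type, knockout over wild-type and knockout on fibronectin over knockout. Red and blue mark genes that rose or fell at an adjusted p under 0.05; no gene is coloured in the third panel.

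The expression levels per length set the genes in the same order at the top in each group, with ENG first and BMP6 second. In wild-type BMP4 (28.5 ± 0.807 FPKM) and ACVRL1 (25.4 ± 2.78 FPKM) came next and differed by little more than the spread of ACVRL1 (SD, n = 3 each). In the knockout ACVRL1 (34.4 ± 3.68 FPKM) stood above BMP4 (14.5 ± 2.02 FPKM), and on fibronectin they stood at 35.6 ± 1.70 and 15.1 ± 1.33 FPKM. BMPR2 and ACVR1 were close in wild-type, at 11.9 ± 1.14 and 11.6 ± 0.465 FPKM, and apart in the knockout, at 11.1 ± 0.170 and 8.09 ± 0.677 FPKM. BMP2, GREM1 and BMPR1A were the low end of the measurable genes in wild-type, at 3.88 ± 0.225, 2.98 ± 0.350 and 2.21 ± 0.369 FPKM.

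For fibronectin, which the series asks about in the knockout cells, no difference was called in the group, with the limits on its size given below. None of the 9 tested genes passed the test in knockout on fibronectin against knockout, and edgeR called 1 of 13802 genes (0.00725%) there. None of the 9 had an unadjusted p under 0.05 in that fit, where 3078 of all genes did. With the clone as a block the same test called 899 of 13257 genes (6.78%; 4.97% higher and 1.81% lower) and none of the 7 genes of the group that it could test, since BMPR1A and GREM1 did not pass the filter in these 6 libraries. With the block BMPR2 had an unadjusted p of 0.0423 and an adjusted p of 0.170, with a log2 fold change of -0.14. DESeq2 called none of the 7 genes to which it gave an adjusted p, BMPR1A and GREM1 having none.

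The intervals limit the size of a difference on fibronectin, in the fit without the clone block, which leaves out the pairing of clones. With the block ENG was at 0.12 (SE 0.065) and BMPR2 at -0.14 (SE 0.066). The values that follow are without it. For BMP6 the log2 fold change was -0.01 with a 95% interval of -0.12 to 0.10, and for ACVRL1 it was 0.07 with an interval of -0.12 to 0.25. ENG was at 0.15 (interval -0.02 to 0.31, adjusted p = 0.292) and was 0.28, 0.00223 and 0.16 higher on the log2 scale in clones 21, 22 and 23. BMPR2 was at -0.11 (interval -0.27 to 0.04, adjusted p = 0.371) and was lower on fibronectin in all 3 clones. Its libraries on fibronectin lay below all those without it, as did 10.6% of all genes tested. For BMPR1A and GREM1 the intervals were wide, -1.02 to 1.50 and -1.77 to 2.81, because few counts were left.

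**Figure D4:**
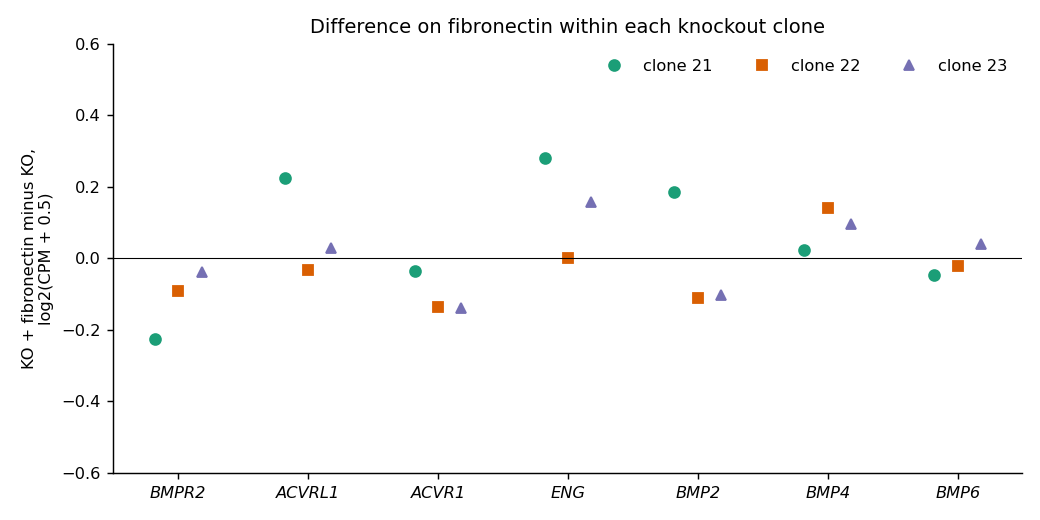
Difference between a knockout clone on fibronectin and the same clone without it, in log2(CPM + 0.5), for the 7 genes with enough counts. BMPR2 and ACVR1 lie below 0 and BMP4 and ENG at or above 0 in all 3 clones; no gene passed the test.

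Other receptors of the pathway moved in both directions. Of 8 tested receptor and co-receptor genes outside the 10, 1 rose, 3 fell and 4 were not called in the knockout, the share called over all genes being 50.1%, and the median log2 fold change was -0.18. BMPR1B, a further type I receptor, averaged 2.47 ± 0.144 CPM on fibronectin and 2.55 ± 0.769 CPM in the knockout, against 8.43 ± 0.779 CPM in wild-type (SD, n = 3 each; log2 fold change of the knockout -1.73, adjusted p = 3.62e-06). The TGF-beta type I receptor gene TGFBR1 and the BMP co-receptor gene RGMB fell by 0.67 and 0.69 on the log2 scale. TGFBR3, which encodes betaglycan, an endoglin relative, rose by a log2 fold change of 0.92 (adjusted p = 2.24e-07). The type II receptor genes ACVR2A and ACVR2B, named beside BMPR2 after their values were seen, had log2 fold changes of -0.09 and -0.26 (adjusted p = 0.448 and 0.109).

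Among 19 other BMP, GDF and activin ligand genes in the table, 6 were tested. Of these, 2 rose and 4 fell in the knockout (23% and 27% of all genes), with a median of -0.83. The 2 that rose, named after their values were seen, were GDF3 and INHBB. They had 1.33 and 0.279 CPM in the knockout, against 0.0807 and 0.0235 CPM in wild-type. They passed the filter on low counts only through knockout libraries, and GDF6 and INHBA only through wild-type libraries. The direction of these calls thus follows in part from the filter. GDF6, a BMP family ligand, had 1 count over the knockout libraries on fibronectin, 1 over those without it and 442 over wild-type. The wild-type ratio was 435 (95% exact interval 77.6 to 17201) on fibronectin and 422 (interval 75.4 to 16722) without it. INHBA, the activin A subunit, had 0.243 and 0.238 CPM on fibronectin and in the knockout, against 9.84 CPM in wild-type (log2 fold change of the knockout -5.33, adjusted p = 8.55e-10). GDF15, a stress-induced member of the family, fell by 1.26 on the log2 scale in the knockout, with 44.6 CPM on fibronectin, 31.8 CPM without it and 76.0 CPM in wild-type. On fibronectin against knockout GDF15 had an adjusted p of 0.123, and of 0.0472 with the clone as a block. GDF11 fell by 0.40. The ligands of ACVRL1, BMP9 (GDF2) and BMP10, named like NOG and CHRD after their values were seen, reached at most 1 and 3 counts in any library.

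Of 10 tested extracellular antagonists and modulators outside the 10, 2 rose, 4 fell and 4 were not called in the knockout, beside 50.1% called over all genes, with a median of -0.62. MGP, a matrix protein that binds BMPs, averaged 45.8 CPM on fibronectin and 44.7 CPM in the knockout, against 168 CPM in wild-type (log2 fold change of the knockout -1.91, adjusted p = 1.48e-10). TLL1, a protease that cleaves the antagonist chordin, fell by 4.34 on the log2 scale, and FSTL3, an activin-binding follistatin relative, fell by 1.80. FSTL1, a secreted follistatin-like glycoprotein, rose by a log2 fold change of 0.47. The classical antagonist genes NOG and CHRD reached at most 6 and 5 counts in any library and were not tested.

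Inside the cell, 3 of 19 tested SMAD genes and regulators rose, 10 fell and 6 were not called in the knockout, where 23% of all genes rose and 27% fell, with a median of -0.24. SMAD1, a transducer of BMP receptors, rose by a log2 fold change of 0.84 (80.8 CPM on fibronectin and 86.4 CPM in the knockout, against 48.1 CPM in wild-type). SMAD6, an inhibitory SMAD that BMP signals induce, fell by 1.61 on the log2 scale. SMURF2, a ubiquitin ligase acting on this pathway, and SKIL, a SMAD repressor, fell by 1.26 and 1.18. SMURF2, SKIL and ZFYVE16, an endosomal protein of the SARA family, passed the test on fibronectin against knockout with the clone as a block (adjusted p = 0.0190, 0.0443 and 0.0253), where 6.78% of all genes did. Without the block none of the 3 passed (0.0972, 0.125 and 0.0972).

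Genes that BMP signals are known to induce moved in both directions. In the knockout 3 of the 13 tested BMP response genes rose and 8 fell, and 2 missed the threshold, beside 23% higher and 27% lower over all genes, with a median of -0.41. ID3 had 9.20 CPM on fibronectin and 8.32 CPM in the knockout, against 97.2 CPM in wild-type, and ATOH8 had 1.26, 0.964 and 45.4 CPM in the same order. ID1, a common readout of the pathway named here after its values were seen, was not called, with 38.2 CPM on fibronectin, 30.7 CPM in the knockout and 40.7 CPM in wild-type (log2 fold change of the knockout -0.41, adjusted p = 0.0758). HEY2, a Notch and BMP target, held 0 counts over the 3 libraries on fibronectin, at least 387-fold lower than wild-type at a floor of 3 counts over the group. The 3 response genes that rose in the knockout were CLDN5, LFNG and TMEM100, with log2 fold changes of 1.93, 0.88 and 2.90. CLDN5, a tight junction gene, is also among the endothelial markers above. TMEM100 was near the limit of detection, at 0.368 CPM in the knockout and 0.0457 CPM in wild-type. It passed the filter on low counts only through knockout libraries, and HEY2 and MSX2 only through wild-type libraries. LFNG, TMEM100 and MSX2 were named after their values were seen. On fibronectin against wild-type, 5 of the 8 other receptor genes fell and 1 rose, 4 of the 6 other ligand genes fell and 2 rose, and 5 of the 10 other antagonist genes fell and 2 rose. Of the 19 SMAD genes and regulators 13 fell and 3 rose there, and of the 13 response genes 8 fell and 3 rose, where 29.6% of all genes fell and 29% rose. No gene of these lists passed the test on fibronectin against knockout without the block.

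The genes that lie beside BMPR1A and GREM1 were examined because both were nearly lost, a choice made after their values were seen. Order along the chromosome was taken from RefSeq, and the 4 nearest tested protein-coding genes on each side were used. Beside BMPR1A on chromosome 10, 3 neighbours rose, 1 fell and 4 were not called, as 50.1% of all genes were called, with log2 fold changes of -0.58 to 2.50. The nearest on either side were CCSER2 (-0.58) and MMRN2, an endothelial matrix protein (0.63), and no neighbour fell further than CCSER2. Beside GREM1 on chromosome 15, 3 rose, 2 fell and 3 were not called. Its nearest tested neighbours were SCG5 (-1.52, with 0.473 CPM in the knockout and 1.38 CPM in wild-type) and FMN1, a formin (3.60, with 6.19 and 0.513 CPM).

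**Figure D5:**
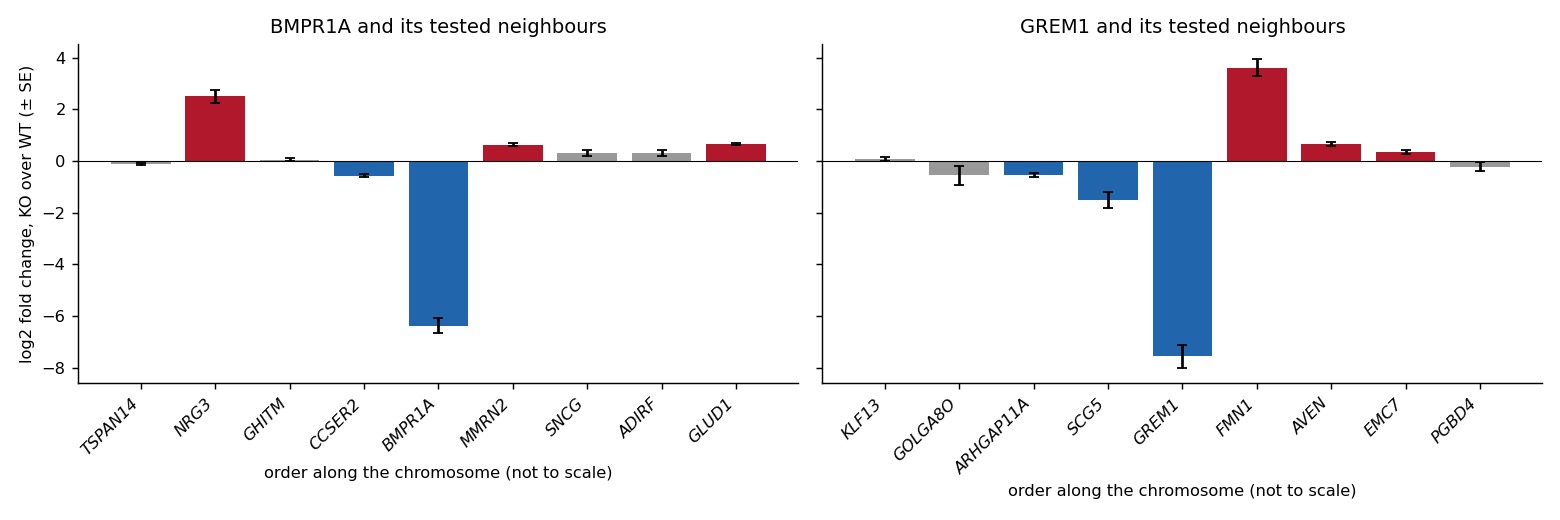
Log2 fold change of knockout over wild-type (bars, ± SE) for BMPR1A and GREM1 and the 4 nearest tested protein-coding genes on each side, in chromosome order and not to scale. Only BMPR1A and GREM1 themselves lie below -6; red and blue mark genes that rose or fell, grey those not called.

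The genes whose CPM pattern over the 9 libraries was most like 5 of the changed genes were ranked by Pearson r on the log2 scale, a description in which the split between knockout and wild-type libraries carries most of the likeness. ENG was most like TGFB1 (r = 0.998) and FBLIM1 (0.995), and ACVRL1 was most like EHD1 (0.988) and HYAL2 (0.985). BMP4 was most like ALDH1A3 (0.993) and CC2D2A (0.991). BMP6 was most like YIPF5 and ENPP1 (0.996 each), and ACVR1 was most like CENPI (0.992) and SPAG5 (0.989). The value of r does not measure the size of a change. YIPF5 and ENPP1 had log2 fold changes of -1.57 and -4.30 in the knockout, against -0.47 for BMP6.

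In the authors' deposited table of wild-type against knockout, where positive values mean higher in the knockout, BMPR1A stood at -5.08 and GREM1 at -5.86 on the log2 scale. The same authors' deposited table gave ACVRL1 at 0.49, ENG at -0.83 and BMP2 at -0.25 (adjusted p = 0.131), so BMP2 was not called there. In the authors' deposited table of wild-type against knockout on fibronectin, BMPR2 (adjusted p = 0.0990) and BMP2 (0.0503) were not called.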

How the data were processed

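Libraries were made with the TruSeq Stranded mRNA kit, as the labels' protocols state, and the authors deposited raw read counts per gene symbol and FPKM values for 9 libraries. STAR, HTSeq and the hg19 (GRCh37) build are named in the submitters' processing notes, without versions. Their own comparisons hold log2 fold changes, p-values, standard errors as scores and mean normalized signal per gene, as deposited. No source used here names the program behind these.

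The quasi-likelihood test of edgeR 4.0.16 (R 4.3.3) was run on the counts with TMM scaling, as 1 fit over the 9 libraries, after filterByExpr with a minimum count of 10 and total of 15. BMPR1A and GREM1, and GDF6, INHBA, HEY2 and MSX2 of the lists, passed the filter only through the wild-type libraries. GDF3, INHBB and TMEM100 of the lists passed it only through knockout libraries. Standard errors are the log2 fold change divided by the root of F. DESeq2 1.42.0 was an alternative. The edgeR script was tested on simulated data. FPKM values were averaged, not tested. Deviations of the same clone with and without fibronectin correlated at r = 0.34, 0.45 and 0.53 over 10205 genes (-0.48 to 0.03 between different clones), and the pairing comes from the shared clone numbers in the labels. No library was a repeat of another of its own group (chi-square of replicate pairs per degree of freedom 5.37 to 21.8). Pairs across groups were not checked. The genes and lists were chosen with earlier results of these data known. Named list genes are, as fixed in the design, up to 4 per list with the smallest p in knockout against wild-type among those called with a mean of at least 1 CPM. The genes most like BMP2 in pattern are not reported here.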

Additional observations from a re-analysis of the deposited data

How the results depend on the processing

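In both comparisons with wild-type, BMPR1A, GREM1, ACVRL1, ACVR1, ENG, BMP4 and BMP6 kept their direction and stayed called in all 11 alternatives, which changed scaling, filter, test or libraries. BMP2 and BMPR2 did not, as given above. The log2 fold change of BMPR2 in the knockout ran from -0.12 to 0.027 when single libraries were left out. For knockout on fibronectin against knockout, the counts of genes called higher and lower were 1 and 0. They were 336 and 47 with no filter, 602 and 385 with DESeq2 and 659 and 240 with the replicate block, and no gene was called higher with only the 6 libraries compared. Leaving out single libraries gave 0 to 413 higher and 0 to 75 lower. The cause was not tested. No gene of the group was called in any of these fits, the replicate block included. When single libraries were left out of that comparison, some log2 fold changes crossed 0. They ran from -0.15 to 0.75 for BMPR1A, -0.028 to 0.12 for ACVRL1 and -0.11 to 0.085 for BMP2. For BMP4 the range was -0.015 to 0.18, for BMP6 -0.056 to 0.014 and for GREM1 -0.45 to 2.32. BMPR2 (-0.18 to -0.066), ACVR1 (-0.19 to -0.064) and ENG (0.061 to 0.20) kept their direction. With single libraries left out, the mean share of ACVRL1 in type I receptor FPKM was 81.8 to 82.3% on fibronectin. It was 79.9 to 80.4% in the knockout and 61.2 to 64.3% in wild-type.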

Other observations

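GREM1 counts ran in the same order over the clones with and without fibronectin, but they were few and a difference between clones was not tested. Clone 21 held 6 counts on fibronectin and 5 without it, clone 22 held 3 and 1, and clone 23 held 0 and 0. A count of 0 allows up to 0.0888 CPM in clone 23 on fibronectin and 0.101 CPM without it, at a floor of 3 counts per library, and covers counting error only. BMPR1A did not follow this order, with 5 counts in clone 23 in both conditions.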
